A study of Homo sapiens with 6 samples.

Results

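The keratin genes were taken as every probe set that the platform annotation names by KRT and a digit, which left out the keratin-associated proteins and gave 46 genes of the 17687 named genes measured. They comprised 45 of the 55 protein-coding keratin genes of the RefSeq gene table and 1 pseudogene, KRT18P55. Every member had 1 probe set. Total RNA of 3 lung cancer cell lines was hybridised to 6 Clarion S arrays, 1 per line and condition. The lines PC-9 and HCC827, labelled EGFR mutant, and H322, labelled wild-type, all come from non-small cell lung cancer; EGFR is the epidermal growth factor receptor. Both mutant lines were measured as a control and after treatment for 6 hours with erlotinib (0.01 µM), which inhibits the kinase of EGFR. H322 was measured as a control and after 6 hours with the receptor's ligand EGF, whose dose is labelled 100 µg/ml. According to the labels the medium of the cells held TNF alpha, and they do not say if that of the controls did. Nothing in the labels says whether a line's cultures were repeated. The p-values over the 2 mutant lines cover these samples only, and the spread behind them comes mostly from other genes.

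Keratins are the intermediate filament proteins of epithelial cells. A filament is built from pairs of a type I (acidic) and a type II (basic) keratin, so cells make members of both types. Simple, single-layered epithelia and lung adenocarcinomas are known for KRT8 and KRT18 with KRT7 and KRT19. Stratified epithelia use other pairs, such as KRT5 with KRT14 in basal cells, KRT1 with KRT10 above them and KRT4 with KRT13 in moist mucosa. KRT16, with KRT6 and KRT17, is known as a keratin of wounded or fast-growing epithelium.

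Signals are given as log2(intensity + 1). Background was set on each array by its 612 negative control probe sets: a gene counted as above it when it exceeded their 95th percentile, a limit between 6.92 and 7.47. Between 48.8% and 52.4% of all named genes exceeded it on an array, against highest signals of 17.97 to 18.17. All 6 epithelial markers (EPCAM, CDH1, CLDN4, CLDN7, ESRP1 and RAB25) lay above the limit on all 6 arrays. Their summed log2 signals were 86.8 to 88.5, and 0 of the 5 measured leukocyte markers lay above the limit on any array. Of 6 measured fibroblast and endothelium markers COL1A2, VWF and CDH5 were above it on 5, 1 and 2 arrays, and COL1A1, DCN and PECAM1 on none. Of 6 lung lineage markers SFTPC, SFTPB and FOXJ1 were above it on none. NKX2-1 (10.09 and 11.21, over 2-fold higher with erlotinib) and NAPSA were above it in HCC827 alone, and SCGB1A1 in H322 alone.

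Of the 46 keratin genes, 9 exceeded the background limit on 1 or more arrays and 37 on none. The share of 19.6% is below the 58.6% of all named genes. The number per array was 7 on both PC-9 arrays, 6 on both HCC827 arrays, 8 on the H322 control and 9 on the H322 array with EGF. The corresponding shares of all genes were 49.8% and 49.6% in PC-9, 49.7% and 52.4% in HCC827, and 48.8% and 51.3% in H322. The 6 genes above on all 6 arrays (13.0% of the keratins, against 41.9% of all genes) were KRT7, KRT8, KRT18, KRT19, KRT80 and KRT16. KRT4 was above on the PC-9 and H322 arrays, KRT13 on both H322 arrays and KRT23 on the H322 array with EGF alone. The KRT23 signal there, 7.44, exceeded that array's limit of 7.13 but not the limit of 7.47 on the H322 control.

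**Figure D1:**
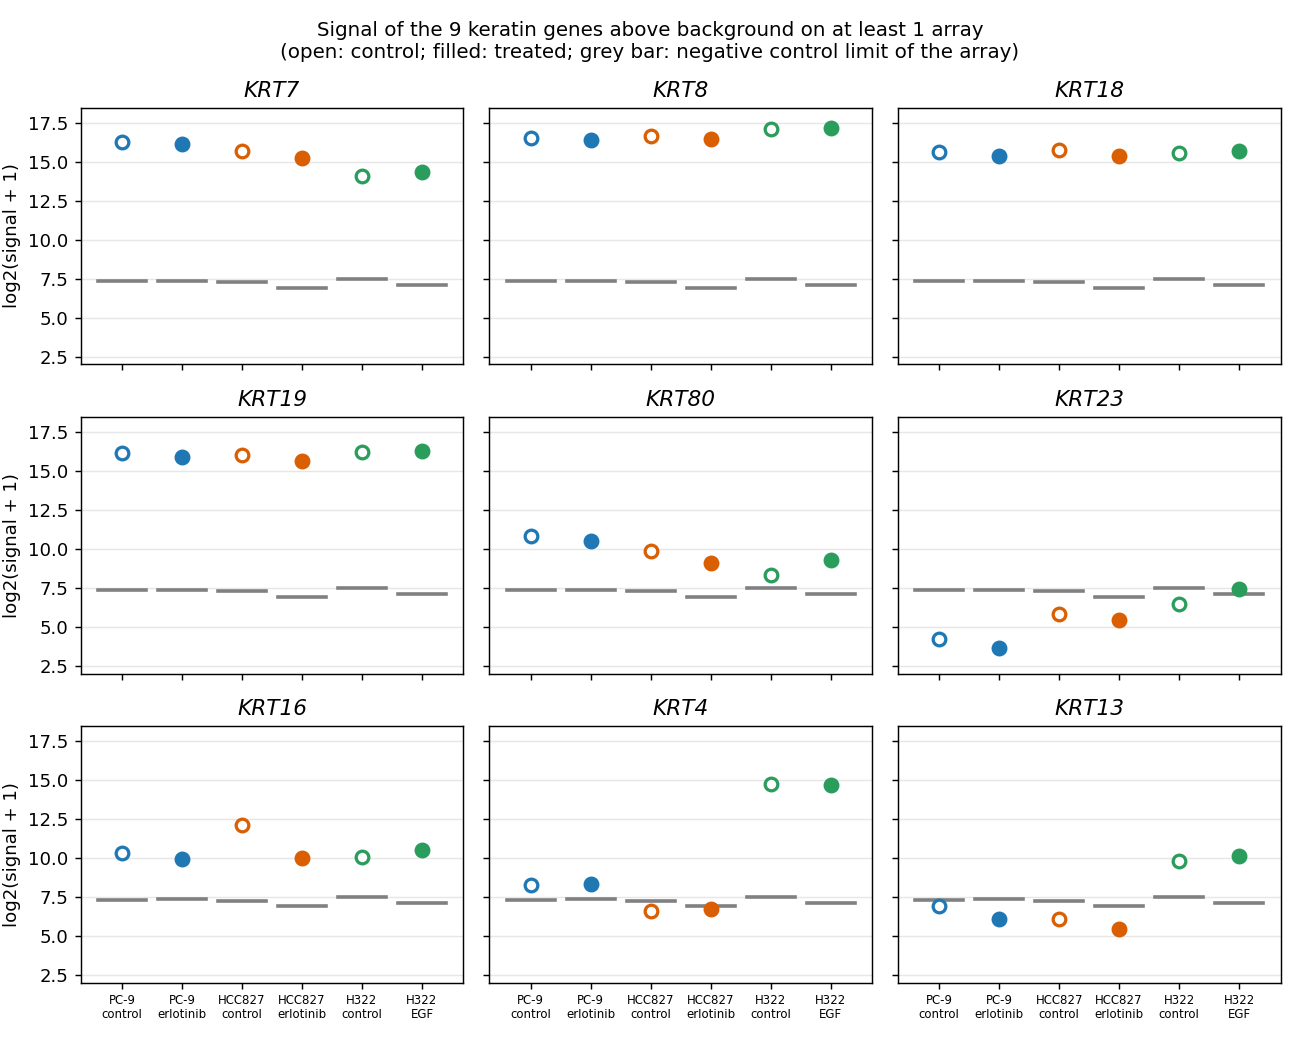
Signal of the 9 keratin genes above background on at least 1 array, as log2(signal + 1) on the vertical axis, on the 6 arrays along the horizontal axis. Open points are controls, filled points treated arrays and grey bars the negative control limit of each array, between 6.92 and 7.47. KRT8, KRT18 and KRT19 lie far above the limit in every line, KRT4 and KRT13 are high in H322, and KRT16 is highest on the HCC827 control array at 12.13.

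The simple epithelial keratins made up most of the signals far above background. KRT8, the type II keratin of simple epithelia, read 16.56 and 16.42 in PC-9 (control and erlotinib), 16.70 and 16.51 in HCC827 and 17.12 and 17.19 in H322 (control and EGF). Its type I partner KRT18 read 15.67 and 15.42, 15.79 and 15.38, and 15.58 and 15.71 in the same order. KRT19, a small type I keratin with almost no tail domain, read 16.19 and 15.93, 16.04 and 15.64, and 16.25 and 16.32. For each of these 3 genes the control arrays of the 3 lines lay within 1.48-fold of each other. The largest gap was that of KRT8 between H322 and PC-9.

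KRT7, a type II keratin used by pathologists to recognise lung adenocarcinoma, was graded over the lines. It read 16.29 and 16.18 in PC-9, 15.68 and 15.25 in HCC827 and 14.10 and 14.39 in H322. Its control signal in H322 was 4.54-fold lower than in PC-9 and 2.98-fold lower than in HCC827. KRT80, a type II keratin found in many epithelia, had the same order: 10.81 and 10.52 in PC-9, 9.87 and 9.11 in HCC827 and 8.36 and 9.27 in H322. The H322 control of KRT80 was 5.45-fold lower than that of PC-9 and 2.84-fold lower than that of HCC827. For both genes the arrays of the 3 lines did not overlap, except that the KRT80 signal of H322 with EGF exceeded that of HCC827 with erlotinib. KRT23, a type I keratin, read 4.20 and 3.65 in PC-9, 5.85 and 5.46 in HCC827 and 6.44 and 7.44 in H322, and the last of these lay 0.31 above its array's limit.

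Of these 9 keratins KRT8 and KRT18 have the most pseudogenes. The RefSeq gene table holds 52 pseudogenes named after KRT8 and 68 named after KRT18, against 6 for KRT16, 5 for KRT19 and 0 for KRT7, KRT80, KRT4, KRT13 and KRT23. The probe sequences were not used here, so how far the signals of KRT8 and KRT18 hold copies of these genes was not tested. The pseudogene with its own probe set, KRT18P55, read between 3.57 and 4.06, below background on every array.

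The mucosal pair KRT4 and KRT13 separated H322 from the EGFR-mutant lines. KRT4, the type II keratin of moist stratified epithelia, read 14.75 and 14.69 in H322, 8.25 and 8.34 in PC-9, and just 6.58 and 6.71 on the HCC827 arrays. Both HCC827 arrays lay below the limit. The H322 control was 90.6-fold higher than the PC-9 control and at least 178-fold higher than the HCC827 control, the bound taking the HCC827 array at its limit. KRT13, its type I partner, read 9.84 and 10.13 in H322, 6.93 and 6.10 in PC-9, with 6.07 and 5.43 on the HCC827 arrays. It was at least 5.65-fold higher in the H322 control than in the PC-9 control and at least 5.93-fold higher than in the HCC827 control. No array of PC-9 or HCC827 exceeded the limit for KRT13. Each line has 1 control array, so these differences have no replicate check.

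KRT4 lies between genes that gave no signal above background, and the 250 bases before its start are shown with those of its neighbours to let the 3 promoters be compared. The sequences are from RefSeq (GRCh38.p14), on the minus strand at chr12:52814117-52814366 for KRT4, chr12:52796118-52796367 for KRT3 and chr12:52834312-52834561 for KRT79, written 5′ to 3′ and ending at the base before the start. Capitals mark TATAA.
KRT4: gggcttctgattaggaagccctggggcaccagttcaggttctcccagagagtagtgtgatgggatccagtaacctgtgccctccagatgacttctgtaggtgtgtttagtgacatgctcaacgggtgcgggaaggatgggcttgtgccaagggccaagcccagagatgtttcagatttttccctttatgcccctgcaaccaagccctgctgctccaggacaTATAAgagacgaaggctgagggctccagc
KRT3: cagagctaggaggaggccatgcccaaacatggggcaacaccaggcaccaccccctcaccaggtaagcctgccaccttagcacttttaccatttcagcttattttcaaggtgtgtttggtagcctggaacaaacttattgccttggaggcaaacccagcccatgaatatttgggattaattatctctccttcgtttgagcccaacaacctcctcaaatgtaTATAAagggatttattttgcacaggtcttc
KRT79: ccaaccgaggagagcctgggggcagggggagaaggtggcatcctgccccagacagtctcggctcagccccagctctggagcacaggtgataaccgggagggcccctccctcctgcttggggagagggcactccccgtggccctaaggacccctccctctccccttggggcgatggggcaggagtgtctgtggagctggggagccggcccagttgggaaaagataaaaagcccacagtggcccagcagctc
KRT4 holds TATAA from 29 to 25 bases before its start and KRT3 from 30 to 26 bases before, while these letters are not in the KRT79 window on either strand. The GC content is 54.8% for KRT4, 46.8% for KRT3 and 66.8% for KRT79. KRT3, a corneal keratin, read between 3.47 and 4.50 over the 6 arrays, and KRT79 between 4.97 and 5.40. TATAA on either strand was found in 22 of the 30 keratin genes with an entry (at the first start listed) and in 18.9% of all 35116 windows of this length. TGANTCA, the letters bound by AP-1 factors, was in 0 of the 30 and in 6.57% of all windows, and GGGCGG, the GC box, in 4 of the 30 and in 42.6% of all. Of the 9 keratins above background only KRT4 and KRT8 had an entry, so these counts describe mostly genes that were not above background here.

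**Figure D2:**
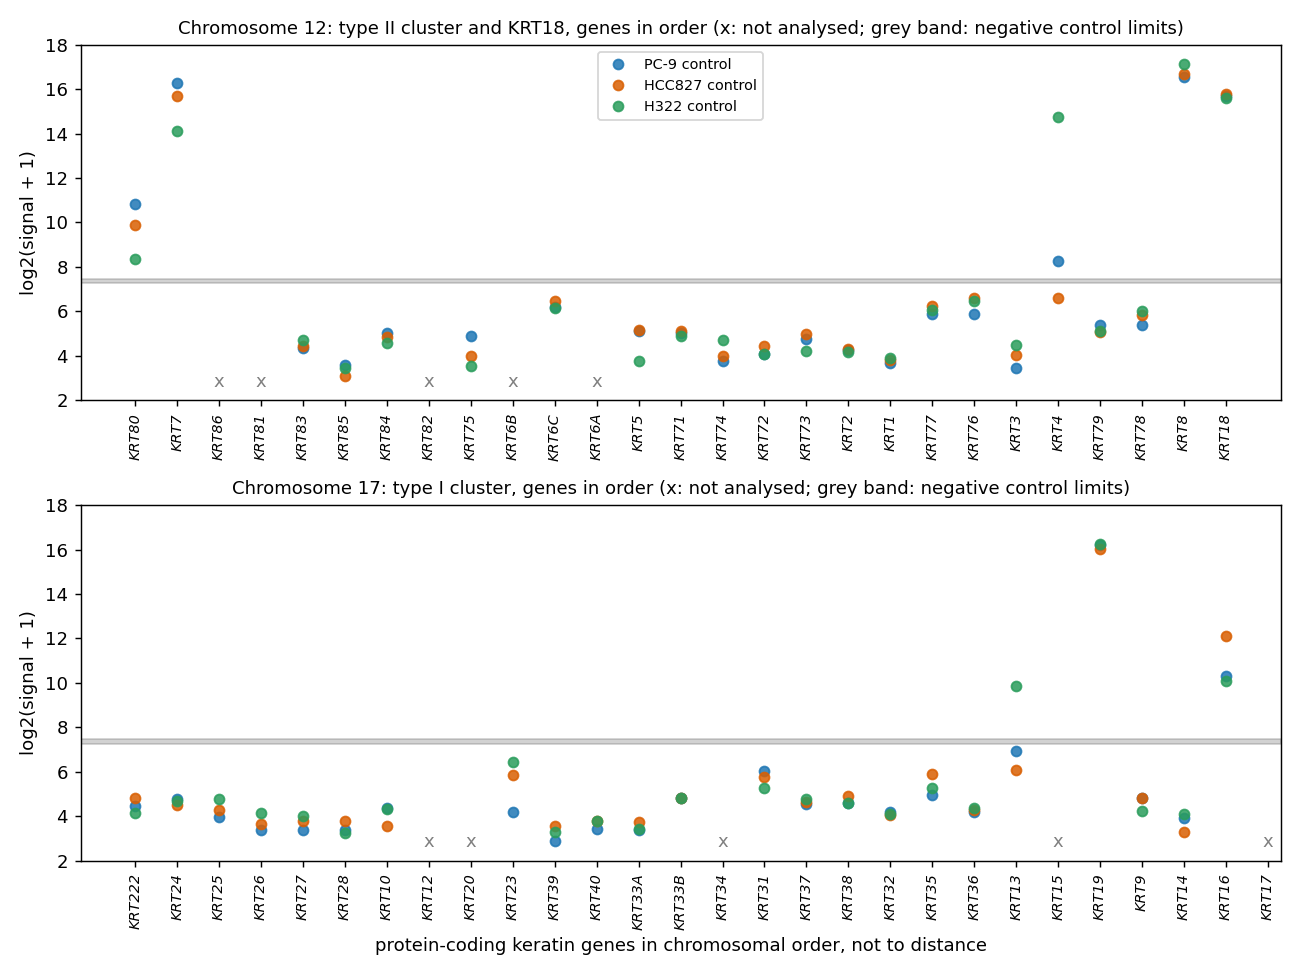
Control signals, as log2(signal + 1), of the protein-coding keratin genes in their order along chromosome 12 (27 genes) and chromosome 17 (28 genes), 1 point per line. The grey band spans the negative control limits of the control arrays and x marks genes not analysed here. Genes above the band stand singly or in pairs at the ends of the order on chromosome 12 (KRT80 and KRT7, KRT8 and KRT18) or among genes below it, such as KRT4.

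The type II genes and KRT18 form a cluster on chromosome 12 and the other type I genes a cluster on chromosome 17. On chromosome 12, 22 of the 27 protein-coding keratin genes were measured and 5 lay above background on at least 1 array. On chromosome 17, 23 of 28 were measured and 4 lay above it. KRT80 and KRT7 are the first and second keratin genes in order on chromosome 12, and KRT8 and KRT18 the last pair. KRT4 stands between KRT3 and KRT79. On chromosome 17 KRT13 and KRT19 are separated by KRT15, which was not analysed here, and KRT16 lies beside KRT14, which read between 3.28 and 4.69.

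KRT16 differed most between conditions. The signals were 10.32 and 9.95 in PC-9 (control and erlotinib), 12.13 and 10.03 in HCC827 and 10.07 and 10.50 in H322 (control and EGF). The HCC827 control stood above the other 5 arrays, which lay between 9.95 and 10.50. It was 3.50-fold higher than the PC-9 control and 4.16-fold higher than the H322 control. KRT16 is close in sequence to KRT14 and KRT17, so its signal is uncertain. KRT14 was below background on every array, and KRT17 was not analysed here.

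The control arrays were compared line by line at 2-fold, counting genes whose brighter signal reached 7.28, the median over all probe sets. In HCC827 against PC-9, KRT16 was higher and KRT4 lower by this count (at least 1.97-fold with the HCC827 signal at its limit), where 10.4% of all genes were higher and 12.1% lower. In H322 against PC-9, KRT4 and KRT13 were higher and KRT7 and KRT80 lower, against 12.4% and 11.5% of all genes. In H322 against HCC827, KRT4 and KRT13 were higher and KRT7, KRT16 and KRT80 lower, against 12.4% and 10.1%. As shares of the 46 keratins these counts are 2.17% to 6.52%, each below the share of all genes. The 37 members below background on all arrays never exceeded 6.87, so they could not be counted. The low shares therefore do not show how often keratins above background differ between lines.

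The other 37 members were below background on all 6 arrays, with signals between 2.90 and 6.87. The basal keratins KRT5 and KRT14, which mark basal and squamous cells, read between 3.28 and 5.17. The 5 keratins of upper and palmoplantar epidermis (KRT1, KRT2, KRT9, KRT10 and KRT77) read between 3.38 and 6.24. The stress keratin KRT6C read between 5.95 and 6.61. The 5 dim members of the mucosal and corneal group (KRT3, KRT24, KRT76, KRT78 and KRT79) read between 3.47 and 6.87, and KRT76 came within 0.26 of the limit on the H322 array with EGF. The 9 keratins of the inner root sheath and companion layer of the hair follicle (KRT25 to KRT28 and KRT71 to KRT75) read between 3.17 and 5.11. The 13 measured hair shaft keratins (KRT31, KRT32, KRT33A, KRT33B, KRT35 to KRT40, KRT83, KRT84 and KRT85) read between 2.90 and 6.16. KRT222 and KRT18P55, which belong to none of these groups, read between 3.57 and 4.82. KRT6A, KRT6B, KRT12, KRT15, KRT17, KRT20, KRT34, KRT81, KRT82 and KRT86 were not analysed here.

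The erlotinib comparison asks what inhibition of the mutated receptor does to these genes in PC-9 and HCC827. All 6 keratins above background on every array read lower with erlotinib in both lines, and none of the 46 passed the test. In limma, fitted over all 17687 genes with the cell line as a block, 0 keratins had an adjusted p under 0.05 in either direction, where 0.916% of all genes passed as lower and 0.565% as higher. At an unadjusted p under 0.05, 7 keratins were lower (KRT7, KRT13, KRT16, KRT18, KRT19, KRT40 and KRT80) and 1 was higher (KRT74), or 15.2% and 2.17%, where 6.83% and 7.53% of all genes were. KRT13, KRT40 and KRT74 were below background on all 4 arrays of these lines.

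KRT16 had the largest mean change of the keratins above background in these lines. It was 4.30-fold lower in HCC827 (log2 difference -2.10) and 1.30-fold lower in PC-9 (-0.37), with a mean of -1.24 ± 0.36 (limma's moderated SE, n = 2 lines; adjusted p = 0.169). Without HCC827 the value is the -0.37 of PC-9. In HCC827 only 14 of the 7405 genes above background on all arrays had a lower difference than KRT16, while in PC-9 1148 had. KRT16 was the 1 keratin at least 2-fold lower in HCC827, where 1.92% of all genes were, and 0 keratins were at least 2-fold higher there (2.57% of all genes). In PC-9 0 keratins passed 2-fold lower (1.78% of all genes) or higher (0.927%). Of the 8 negative control probe sets with a signal of at least 10 in HCC827, 4 also differed 2-fold and 1 was lower by as much as KRT16, and their part in the result was not tested.

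KRT80 had a log2 difference of -0.29 in PC-9 and -0.76 in HCC827 (1.22-fold and 1.69-fold lower), with a mean of -0.52 ± 0.21 (limma adjusted p = 0.32). The simple epithelial keratins had smaller differences. KRT18 had -0.25 in PC-9 and -0.41 in HCC827, with a mean of -0.33 ± 0.10 (limma adjusted p = 0.194). KRT19 had -0.26 and -0.40, also with a mean of -0.33 ± 0.10 (limma adjusted p = 0.174). KRT7 had -0.10 and -0.42 (mean -0.26 ± 0.11, limma adjusted p = 0.342), and KRT8 had -0.14 and -0.19 (mean -0.17 ± 0.09, limma adjusted p = 0.465). For each of the 6 genes the HCC827 value was the lower of the pair. Differences of 1.07-fold to 1.34-fold in 1 pair of arrays are small, and 13.9% to 26.8% of the 7405 genes had a lower difference in HCC827 than KRT7, KRT8, KRT18 or KRT19, and 22.1% to 36.4% in PC-9.

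KRT4 had 0.09 in PC-9 and 0.13 in HCC827, the latter between signals below background (mean 0.11 ± 0.26, limma adjusted p = 0.904). KRT13 and KRT23 had both arrays of both lines below background, with mean differences of -0.73 and -0.47 for which no fold is given (limma adjusted p = 0.276 and 0.441). KRT16 in HCC827 was thus the sole difference over 2-fold with erlotinib among keratins above background.

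**Figure D3:**
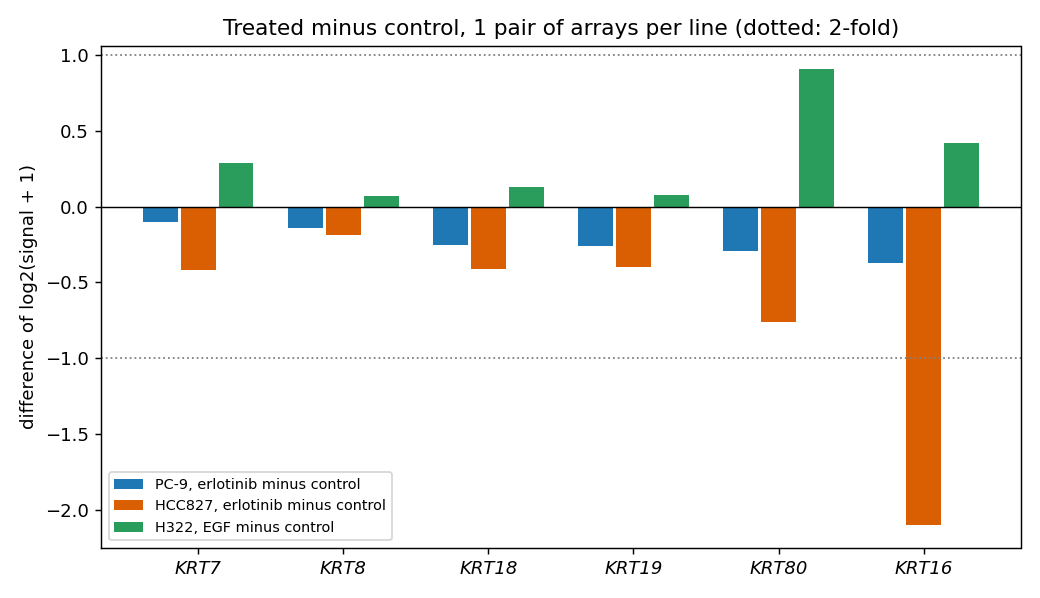
Treated minus control of log2(signal + 1) for the 6 keratins above background on all arrays, 1 bar per line, from 1 pair of arrays each and so without error bars. The dotted lines mark 2-fold. All bars of the erlotinib lines are below 0, the lowest at -2.10 for KRT16 in HCC827, and all bars of H322 with EGF are above 0, the highest at 0.91 for KRT80.

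The EGF comparison asks what the ligand does in H322, where the receptor is wild-type, and has 1 array per condition and no test. All 6 of these keratins read higher with EGF. KRT80 had the largest difference among them, 8.36 against 9.27, a log2 difference of 0.91 or 1.88-fold. It was exceeded by 13 of the 7405 genes above background on all arrays. Both KRT80 signals lay below the 99th percentile of the negative controls of their arrays (11.03 and 9.61). Of the 45 negative control probe sets that reached 7.28 in H322, 30 differed 2-fold, and their part in the result was not tested. KRT16 was 1.34-fold higher (0.42), which 4.35% of the 7405 genes exceeded, and KRT7 was 1.22-fold higher (0.29), which 10.5% exceeded. KRT18, KRT19 and KRT8 had 0.13, 0.08 and 0.07, which 27.3%, 36.5% and 36.6% exceeded. KRT13 was 1.22-fold higher (0.29) and KRT4 1.04-fold lower (-0.06), so the pair that sets H322 apart differed by at most 1.22-fold with EGF. KRT23 differed by 0.997 between a control below background and an EGF array 0.31 above its limit, and no fold is given. No keratin reached 2-fold in H322 in either direction, where 0.102% of all genes were that much higher and 0.0848% lower.

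The 6 keratins above background on all arrays were lower with erlotinib in both mutant lines and higher with EGF in H322, 6 of 6. Of the 7405 genes above background on all arrays, 21.3% had this pattern, 30.7% were lower in both mutant lines and 51.4% were higher with EGF. Among 491 genes with a mean log2 signal of at least 14, as bright as KRT7, KRT8, KRT18 and KRT19, 26.3% had the pattern and 35.4% were lower in both mutant lines. The median difference of these bright genes was -0.04 in PC-9, 0.04 in HCC827 and 0.01 in H322. The 2 comparisons share no array. With RNA from whole cultures, fewer cells that make a keratin and less keratin RNA per cell cannot be told apart.

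**Figure D4:**
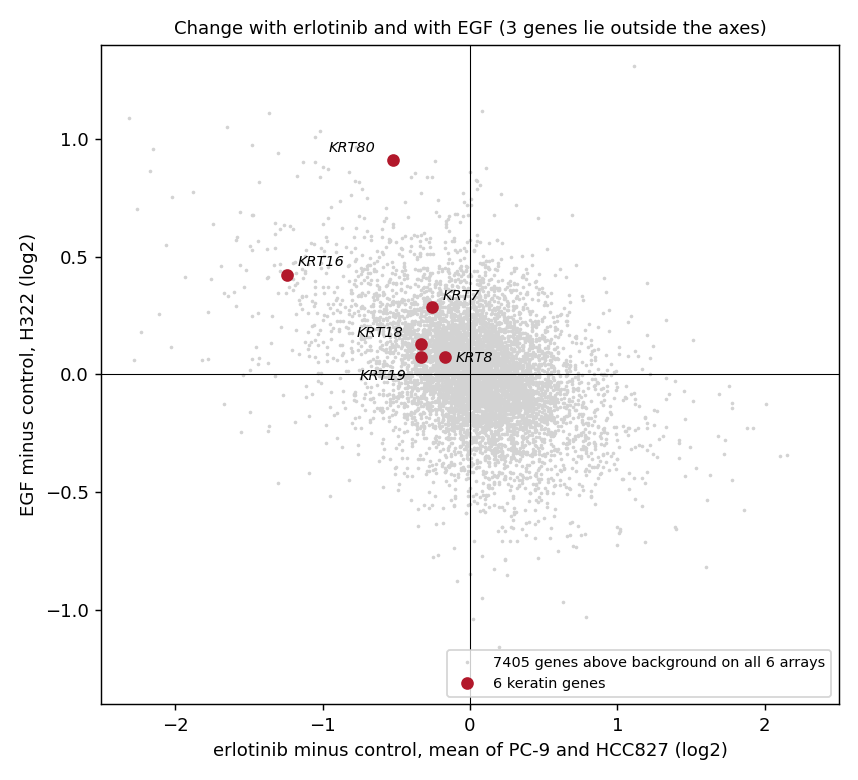
Mean log2 difference with erlotinib in PC-9 and HCC827 (horizontal axis) against the log2 difference with EGF in H322 (vertical axis) for the 7405 genes above background on all 6 arrays, with 3 genes outside the axes. The 6 keratins lie in the upper left part, with KRT16 farthest to the left at -1.24 and KRT80 highest at 0.91.

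Over all 46 keratins the median log2 difference was -0.08 in PC-9, -0.26 in HCC827 and 0.11 in H322, against 0.01, 0.00 and 0.01 over all genes. In HCC827 39 of the 46 were lower (84.8%, against 50.5% of all genes), among them 31 of the 37 that were below background there and elsewhere (83.8%, against 60.1% of the 7325 named genes below background on all arrays and 54.1% of the negative control probe sets). The 37 had a median of -0.24 in HCC827, against -0.09 for those 7325 genes and -0.09 for the 612 negative control probe sets. In PC-9 the 37 had a median of 0.03 and 17 were lower (45.9%, against 49.0% of the 7325 genes). The median over the 46 thus rests mostly on signals that were not above background.

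Genes linked to keratins by family, attachment, regulation or tissue were followed as lists. In the list of desmosome and hemidesmosome genes, which tie keratin filaments to the cell membrane, 0 of 19 measured members passed the test with erlotinib in either direction (median 0.18). The largest mean differences were those of PLEC, which encodes the linker protein plectin, at -0.72 ± 0.24, and ITGA6, an integrin of hemidesmosomes, at -0.61 ± 0.15 (limma adjusted p = 0.219 and 0.104). In PC-9 PLEC read 11.61 and 11.34, whereas HCC827 gave 11.02 and 9.85. It was the only member 2-fold lower in HCC827. The desmosomal genes of squamous cells PKP1, DSG1, DSG3, DSG4, DSC1 and DSC3 were below background on every array, whereas DSP, JUP, PKP2, DSG2 and DSC2, which simple epithelia also use, were above it on all 6 arrays.

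Among other intermediate filament genes 1 of 14 measured members passed the test as lower with erlotinib and 0 as higher (median -0.06), where 0.916% and 0.565% of all genes did. INA, which encodes alpha-internexin, a filament protein of neurons, fell by 1.01 ± 0.18 on the log2 scale (limma adjusted p = 0.0452). The call was lost in 4 of 8 alternative fits, among them those without a trend of the spread and without the block (limma adjusted p = 0.169 and 1.0). INA read 13.81 and 12.91 in PC-9, 9.01 and 7.90 in HCC827 and 4.77 and 4.69 in H322, the last pair below background. BFSP1, a lens filament gene, had the next largest mean, 0.40 ± 0.32 (limma adjusted p = 0.653). VIM, which encodes vimentin, the filament protein of mesenchymal cells, read 13.61 and 13.38 in PC-9 and was below background in HCC827 and H322, so PC-9 held vimentin signal beside its KRT8 and KRT18. Of the 4 mesenchymal markers fixed for the series (VIM, CDH2, ZEB1 and FN1), 3 were above background on both PC-9 arrays, 1 on both HCC827 arrays and 0 in H322, with summed log2 signals of 45.4 to 46.7, 27.0 to 27.5 and 22.9 to 23.1.

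Cornified envelope and squamous differentiation genes, which accompany the stratified keratins in skin and mucosa, gave 0 passes among 16 measured members (median -0.29). SPRR2D and SPRR2A, small proline-rich proteins of the cornified envelope, had the largest mean differences, -1.16 ± 0.51 and -1.15 ± 0.31 (limma adjusted p = 0.355 and 0.141). Both were at least 2-fold lower in HCC827, SPRR2D from 14.89 to 12.46 and SPRR2A from 14.73 to 12.95, and below background in PC-9. They are close in sequence to other SPRR2 genes and so uncertain. SPRR3, a related gene of moist mucosa, read 16.17 and 16.29 in H322 and 15.05 and 14.57 in HCC827, and was below background in PC-9. KRT4 and KRT13, in contrast, were high in H322 alone. IVL, TGM1, TGM3, FLG, LORICRIN and SBSN were below background on every array.

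Of 18 measured transcription factors that regulate keratin genes or epithelial identity, 2 passed the test as higher with erlotinib and 2 as lower (median 0.26). Of all genes 0.565% and 0.916% did. The AP-1 gene FOSL1 fell by 5.13 ± 0.18 and JUN fell by 1.53 ± 0.27, while the epithelial factors ELF3 and OVOL2 rose by 2.01 ± 0.27 and 1.98 ± 0.24 (limma adjusted p = 9.2e-05, 0.0442, 0.0225 and 0.0175). OVOL2 was below background on the PC-9 control. Of 8 alternative fits FOSL1 was called in 7, OVOL2 in 6, ELF3 in 5 and JUN in 4. None of them was called without the block, and FOSL1 alone without a trend of the spread (limma adjusted p = 0.00899). FOSL1 read 8.41 and 10.61 in H322 and was the 1 gene of this list at least 2-fold higher with EGF. SOX2, a factor of airway and squamous progenitors, read 11.49 and 14.25 in HCC827 and was below background in PC-9, with a mean of 1.71 ± 0.43 (limma adjusted p = 0.116). GRHL3, a factor of stratified epithelium, read 9.85 on both H322 arrays and was below background in PC-9 and HCC827, the same lines as for KRT13. In the list named keratin binding and turnover 0 of 12 measured members passed (median -0.05). Not all its members are known to bind keratins, among them PIRT, KRTCAP2 and KRTCAP3. SFN, a 14-3-3 protein of epithelial cells, and FAM83H, which binds keratins, had mean differences of -0.96 ± 0.24 and -0.80 ± 0.19 (limma adjusted p = 0.12 and 0.0953), and SFN was 2-fold lower in HCC827 (14.91 to 13.36).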

How the data were processed

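RNA of 6 samples was measured on Clarion S arrays. The authors deposited linear intensities per probe set, for which the submitters' processing notes name Affymetrix Expression Console. Version, background correction, summarisation and scaling: not given in the sources used here. A shift common to most genes would be lost in any scaling of arrays to one level. No build is named, so coordinates are those of the RefSeq promoter table alone.

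From the intensities log2(value + 1) was computed for 24351 probe sets, of which 17709 had 1 gene symbol, 0 several and 6642 none. All 17709 matched the RefSeq table by gene identifier. The brightest probe set was kept per gene. A gene below the negative control percentile on 1 array of a pair has a bound ("at least"), and below it on both no fold. Counts use unbounded differences.

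Erlotinib was tested with limma 3.58.1 (R 4.3.3): lmFit and eBayes with a trend, cell line as a block, two-sided, Benjamini-Hochberg over all genes at 0.05. Of its degrees of freedom 1 is residual and 6.58 come from other genes, so p-values say little of how alike the lines were. Arrays are paired by cell line. The correlation across genes within a pair was 0.991 (PC-9) and 0.988 (HCC827), and between both controls 0.907. Values after ± are limma's moderated SE. Precision is limited by the number of arrays. The script was tested on simulated data. Python 3.11.15 computed the counts.

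Genes are named by rule: every keratin above background on at least 1 array by its values, the rest by range, and from each companion list the members that passed or the 2 with the largest mean change. Others (such as VIM, SPRR3, GRHL3, SOX2 and the 2-fold members) were named after their values were seen. The members and lists were chosen with earlier results of these data known. The background among genes of a mean signal of at least 14, and of bright negative controls, was added after seeing the data.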

Additional observations from a re-analysis of the deposited data

How the results depend on the processing

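Of 246 values under alternative settings, 235 counted as the same. Some of them could not differ, so this count does not measure robustness. Every member had 1 probe set, so averaging probe sets left its signals as they were. Fits without the trend or the block alter p-values and not mean differences. Restricting the genes tested leaves the H322 differences of single genes as they were. Tested values had to keep their sign and their side of the threshold. Untested ones had to stay within 1.5-fold or the spread of the 2 mutant lines. Single genes with 1 line left out had only to keep their sign. By that rule KRT16 counted as the same at -2.1 and at -0.37, against -1.24. With erlotinib 0 keratins passed as higher under any setting. As lower, 1 passed after quantile normalization (KRT16, -1.26, limma adjusted p = 0.0101) and 3 when signals under the background limit were set to it: KRT16 (-1.24, 5.66e-07), KRT18 (-0.33, 0.0452) and KRT19 (-0.33, 0.0276). That setting moves the median of all genes by -0.17 with erlotinib and -0.34 with EGF, and calls 1115 genes against 262. It turned KRT4 to -0.13 (limma adjusted p = 0.774) and KRT23 with EGF to -0.03, turned the median EGF difference of all 46 keratins from 0.11 to -0.34, the same as that of all genes, and left 1 keratin 2-fold apart between the HCC827 and PC-9 controls in place of 2. When both signals of a pair are set to the limit, their difference is only that between the limits of the arrays. These limits were 7.47 and 7.13 in H322 and 7.27 and 6.92 in HCC827 (control and treated). With no replicate block for the cell line 0 keratins passed in either direction, and 0 of all genes. Without a trend of the spread 0 keratins and 1 gene in all passed. The median erlotinib difference of the keratins, -0.14, ranged from -0.26 to -0.08 with 1 line left out. It was -0.33 among keratins above background on at least 1 array of PC-9 or HCC827, which leaves out KRT13 and KRT23. With the 99th percentile of the negative controls as limit, 5 keratins were above it on the H322 control in place of 8. KRT13, KRT16 and KRT80 fell below that limit of 11.03. Only KRT7, KRT8, KRT18 and KRT19 exceeded the 99th percentile on every array. The causes were not tested, apart from the fewer genes or the raised values that a setting itself brings. The signs of the 6 keratins above background on all arrays were the same in each line after median centring and after quantile normalization. Another offset or raised dim signals could not change them, since an offset keeps the order of signals and none of these signals were dim. For the 37 members below background on all arrays, and for KRT4, KRT13 and KRT23 in the lines where they were, the signal over background limits what can be seen.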
